A study of Homo sapiens with 6 samples.

Results

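Glutathione, the main thiol that protects cells from peroxides, is made from cysteine, glutamate and glycine, and 9 genes of its supply and use were examined here. They are SLC7A11 and SLC3A2, which form the cystine importer, GCLC and GCLM, which form glutamate-cysteine ligase, the synthetase GSS, the reductase GSR, and CBS, GGT1 and GLS2, which feed the pathway with cysteine or glutamate. They were taken by symbol from the count table, where each of the 9 had 1 row among 37923 genes, and all 9 passed the filter on low counts that 18581 genes passed. The 6 samples carry the label RKO, the name of a colorectal carcinoma line from a human tumour, and fall into 3 ENZ libraries and 3 Control libraries. The series design describes ENZ as cells exposed to compound A3, a degrader of the histone demethylase LSD1, and RNA as taken at 48 h, and no source used here says what the Control cells received. The title of the series names ferroptosis, an iron-dependent cell death driven by lipid peroxides, as its subject, and the question asked here was how transcripts of glutathione supply differed between the labels ENZ and Control.

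Cells take up cystine, the oxidised dimer of cysteine, through a transporter made of the light chain xCT (SLC7A11) and the heavy chain CD98hc (SLC3A2), in exchange for glutamate. Glutamate-cysteine ligase joins cysteine to glutamate in the rate-limiting step, and glutathione synthetase adds glycine. GPX4 spends glutathione on lipid peroxides and glutathione reductase restores it with NADPH. For this reason loss of cystine import is a classical trigger of ferroptosis. The transcription factors NRF2 (gene NFE2L2) and ATF4 are textbook activators of several of these genes.

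Libraries held 26691289 to 30025543 counts, so that 3 counts, the limit that a count of 0 allows, stood for 0.0999 to 0.112 CPM (counts scaled to the library total). KDM1A, which encodes LSD1, had 108 ± 3.18 CPM in ENZ and 113 ± 2.15 in Control (SD, n = 3 each), and since a degrader acts on the protein this is no check of the exposure. The labelled cell type was set against marker lists. A mean under 1 CPM was found for 8 of 11 colorectal markers, with summed levels of 87.8 to 91.5 CPM in ENZ and 65.8 to 68.4 CPM in Control, while of 13 prostate luminal markers 9 had a mean over 10 CPM, with sums of 3259 to 3290 CPM in ENZ and 3037 to 3105 CPM in Control. The libraries therefore went against their label in these markers, in both groups alike, and "cells labelled RKO" is used below. Leukocyte and endothelial markers were each under 1 CPM (7 and 6 genes in the table). Among 8 fibroblast markers LUM and COL1A1 were over 10 CPM and 5 were under 1 CPM, with sums of 40.2 to 43.1 CPM in ENZ and 77.6 to 86.8 CPM in Control. LUM carried most of that difference, with 27.5 to 30.7 CPM in ENZ and 64.4 to 71.7 CPM in Control. DCN was also lower in ENZ, with 0.1998 to 0.544 CPM, against 1.84 to 2.47 CPM in Control. Among markers with very few counts, PDGFRB was lower, with 0 to 0.112 CPM in ENZ and 0.213 to 0.337 CPM in Control. PDGFRA was higher, with 0.0747 to 0.102 CPM in ENZ and 0 to 0.0736 CPM in Control. COL1A1 had 11.4 to 13.2 CPM in ENZ and 10.3 to 12.8 CPM in Control, and COL3A1, COL1A2 and FAP had at most 0.262 CPM in any library. The part of these markers in the results was not tested. In bulk RNA, fewer cells of a type and less RNA per cell cannot be told apart.

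In the libraries labelled ENZ both subunits of glutamate-cysteine ligase fell, GCLC to 119.6 CPM, against 147.2 CPM in Control, and GCLM to 54.1 CPM, against 63.2 CPM in Control, a call that some alternatives below did not keep. CBS, which makes the cysteine precursor cystathionine, rose to 233.8 CPM in ENZ, against 204 CPM in Control. The other 6 genes did not pass the test, SLC7A11 with a negative log2 fold change and SLC3A2, GSS, GSR, GGT1 and GLS2 with positive ones. Calls, here and below, are genes with an adjusted p below 0.05, taken from the quasi-likelihood test of edgeR with p-values adjusted by Benjamini-Hochberg over all 18581 genes, unless another test is named. Of the 9 genes 3 were called, 1 higher and 2 lower, while 39.8% of all tested genes were called, 20.5% higher and 19.3% lower, so the share of calls among the 9 was near the background. The groups did not overlap in 3 of the 9 genes, against 49.2% of all tested genes. The largest absolute log2 fold change among the 9 was 0.36, and 2.98% of all tested genes were called with one over 1. The median absolute log2 fold change was 0.19 over the 9 genes and 0.20 over all tested genes. Summed over the 9 genes, the level was 1509 ± 3.63 CPM in ENZ and 1518 ± 10.02 CPM in Control.

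**Figure D1:**
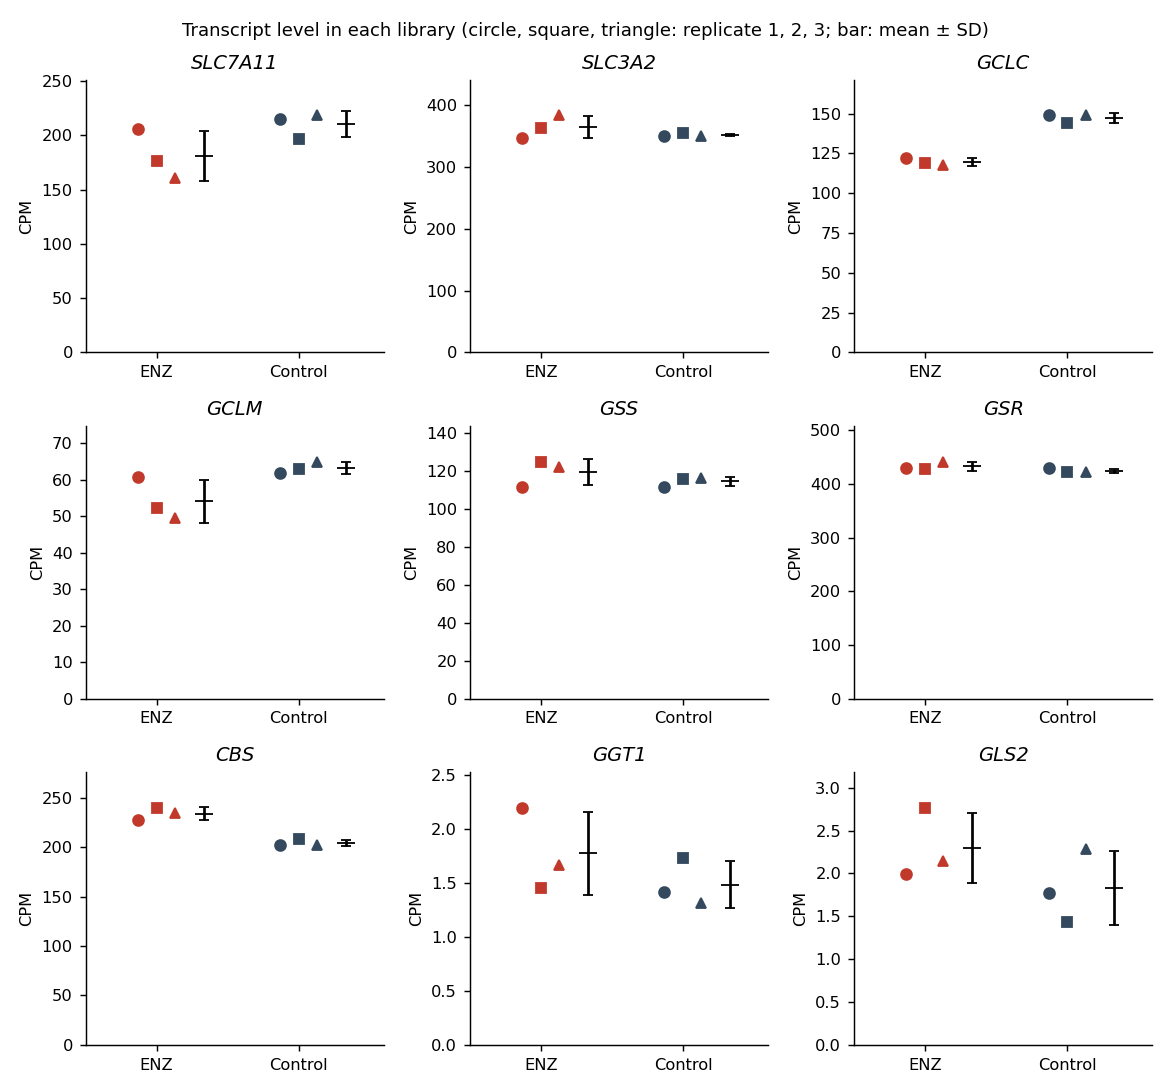
Level of each of the 9 genes in CPM (vertical axes, starting at 0) in the 3 ENZ and 3 Control libraries, with the mean ± SD of each group as a bar. The groups are apart for GCLC, GCLM and CBS and overlap for the other 6 genes; ENZ replicate 1 lies nearest to Control in SLC7A11 and GCLM.

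Promoter windows are shown for the 3 genes that were called and for SLC3A2, because members of this pathway are textbook targets of NRF2 and ATF4 and the letters these factors are known to recognise can be looked for. The windows run from 250 bases before to 50 bases after a transcript start and come from RefSeq on GRCh38.p14. The set of windows used here held 11 for 6 of the 9 genes (SLC3A2, GCLC, GCLM, CBS, GGT1 and GLS2). Capitals mark matches to the core of the antioxidant response element, TGACNNNGC (GCNNNGTCA where it lies on the other strand), and to the CARE motif of ATF4, TGATGNAA (TTNCATCA on the other strand). SLC3A2 has 3 listed starts and CBS has 3, and the window with a match, picked once the matches were known, is shown for each. The sequences run 5′ to 3′ on the strand of the gene, at chr6:53545052-53545351 (minus strand) for GCLC, chr1:93909381-93909680 (minus strand) for GCLM, chr21:43076328-43076627 (minus strand) for CBS and chr11:62881449-62881748 (plus strand) for SLC3A2.
GCLC: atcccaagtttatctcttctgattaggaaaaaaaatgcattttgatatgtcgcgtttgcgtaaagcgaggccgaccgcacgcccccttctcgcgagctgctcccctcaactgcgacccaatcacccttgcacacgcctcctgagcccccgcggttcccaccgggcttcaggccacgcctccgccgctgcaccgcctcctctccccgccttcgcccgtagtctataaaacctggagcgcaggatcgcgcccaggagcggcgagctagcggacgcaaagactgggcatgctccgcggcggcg
GCLM: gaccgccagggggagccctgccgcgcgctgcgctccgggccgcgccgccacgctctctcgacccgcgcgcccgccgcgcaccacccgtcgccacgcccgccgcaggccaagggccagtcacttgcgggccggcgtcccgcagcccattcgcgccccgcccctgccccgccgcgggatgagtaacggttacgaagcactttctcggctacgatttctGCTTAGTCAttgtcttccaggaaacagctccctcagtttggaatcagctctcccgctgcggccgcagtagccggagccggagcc
CBS: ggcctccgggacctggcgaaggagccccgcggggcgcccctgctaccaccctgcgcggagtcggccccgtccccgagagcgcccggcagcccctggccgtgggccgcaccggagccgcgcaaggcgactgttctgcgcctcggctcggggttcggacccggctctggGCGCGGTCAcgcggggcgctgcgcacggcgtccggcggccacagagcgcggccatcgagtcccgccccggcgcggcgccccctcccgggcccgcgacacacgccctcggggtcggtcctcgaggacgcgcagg
SLC3A2: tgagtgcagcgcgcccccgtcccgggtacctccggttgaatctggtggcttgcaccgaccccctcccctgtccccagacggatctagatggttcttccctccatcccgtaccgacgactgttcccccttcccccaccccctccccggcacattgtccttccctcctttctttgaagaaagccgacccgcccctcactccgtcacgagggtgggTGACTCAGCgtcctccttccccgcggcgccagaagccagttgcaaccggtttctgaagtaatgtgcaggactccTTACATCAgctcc

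The GCLM window held TGACTAAGC on the opposite strand, from position -34 to -26 relative to the start. The CBS window held TGACCGCGC on the opposite strand from -83 to -75. The SLC3A2 window held TGACTCAGC from -37 to -29 and TGATGTAA on the opposite strand from 38 to 45. GGT1 held TGACCCAGC on the opposite strand, from -29 to -21, in 1 of its 2 windows. The GCLC and GLS2 windows held neither motif. Among all 35116 promoter windows of this length, 13.3% held the antioxidant motif and 3.62% the CARE motif, against 4 and 1 of the 11 windows here. These matches are letters in a window and were not measured as bound sites.

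SLC7A11 (ENSG00000151012; chromosome 4, 138164097 to 138242349, minus strand, GRCh38) had 206 CPM, 176 CPM and 161 CPM in ENZ replicates 1 to 3 and 215 CPM, 197 CPM and 219 CPM in Control replicates 1 to 3. ENZ replicates 2 and 3 lay below every Control library, and ENZ replicate 1 lay inside the Control range. The log2 fold change was -0.18 ± 0.09 (SE; 95% confidence interval -0.39 to 0.02; adjusted p = 0.145, not called), a change of -11.8% with an interval from -23.6% to 1.7%. The spread among ENZ libraries, a coefficient of variation of 12.8%, was far above the 1.39% that counting alone gives at this depth, and in Control it was 5.67%. SLC7A11 was called in limma-voom (adjusted p = 0.0281) and without a filter on low counts (0.000322). Without ENZ replicate 1 the log2 fold change was -0.28 (adjusted p = 2.09e-06), without ENZ replicate 3 it was -0.10 (adjusted p = 0.163), and with offsets for GC content and length it turned to 0.06 (interval -0.0043 to 0.12; adjusted p = 0.129). These offsets were fitted in each library on GC content and transcript length, and they take out any difference that runs with either. SLC7A11-AS1 overlaps the exons of SLC7A11 on the opposite strand by 865 bases and had 23 to 59 counts a library, against 4713 to 6186 for SLC7A11.

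SLC3A2, which carries SLC7A11 and several other light chains to the membrane (ENSG00000168003; chromosome 11, 62856004 to 62888880, plus strand), had 347 CPM, 362 CPM and 383 CPM in the ENZ libraries and 349.9 CPM, 354 CPM and 350.2 CPM in the Control libraries. ENZ replicate 1 was the lowest of the 6 libraries and the other ENZ libraries were the highest. The log2 fold change was 0.09 ± 0.04 (interval 0.0064 to 0.17; adjusted p = 0.0801), and without ENZ replicate 1 it was 0.13 and called (adjusted p = 0.0014). Without ENZ replicate 3 it was 0.0456 (adjusted p = 0.364). The partners of the transporter had fold changes of opposite sign in this fit, while both were positive with GC and length offsets, at 0.0593 for SLC7A11 and 0.0284 for SLC3A2. Per length, the ratio of SLC7A11 to SLC3A2 was 0.393, 0.322 and 0.278 in ENZ and 0.408, 0.368 and 0.414 in Control, in FPKM (counts scaled to transcript length and library total, as deposited). The groups overlapped, and the log2 ratio differed by -0.27 with an exact permutation p of 0.2 (two-sided, n = 3 each; the smallest p this design allows is 0.1). Leaving out 1 library moved that difference between -0.40, without ENZ replicate 1, and -0.15, without ENZ replicate 3.

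GCLC, the catalytic subunit of glutamate-cysteine ligase (ENSG00000001084; chromosome 6, 53497341 to 53616970, minus strand), had 122 CPM, 119 CPM and 118 CPM in ENZ and 149 CPM, 144 CPM and 149 CPM in Control. Every ENZ library lay below every Control library, with coefficients of variation of 2.06% in ENZ and 2.01% in Control. GCLC fell, with a log2 fold change of -0.26 ± 0.04 (interval -0.35 to -0.18; adjusted p = 1.12e-05), a change of -16.8%. The call held in all 17 alternatives run, where the log2 fold change ran from -0.30 to -0.21, and it was -0.21 (adjusted p = 1.8e-06) with GC and length offsets.

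GCLM, the modifier subunit that raises the affinity of the enzyme for glutamate (ENSG00000023909; chromosome 1, 93885199 to 93909456, minus strand), had 60.8 CPM, 52.2 CPM and 49.4 CPM in ENZ and 61.7 CPM, 62.9 CPM and 65.0 CPM in Control. ENZ replicate 1 lay just below the lowest Control library and the other ENZ libraries lay well below it. GCLM fell by 0.19 ± 0.06 on the log2 scale (interval -0.31 to -0.06; adjusted p = 0.0178). That call ended with GC and length offsets, which gave a log2 fold change of 0.0026 (interval -0.08 to 0.09; adjusted p = 0.969). It also ended without ENZ replicate 2 (adjusted p = 0.0864), without ENZ replicate 3 (0.0906), without Control replicate 2 (0.0559), without Control replicate 3 (0.0877) and in limma on FPKM values (0.0619 to 0.152).

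The ratio of GCLC to GCLM in FPKM was 1.27, 1.43 and 1.498 in ENZ and 1.52, 1.44 and 1.44 in Control. The groups overlapped (difference of the log2 ratio -0.07, exact permutation p = 0.4, n = 3 each), so no shift between the subunits was detected in this ratio. Leaving out 1 library moved that difference between -0.12, without ENZ replicate 3, and -0.0018, without ENZ replicate 1. With GC and length offsets the log2 fold change was -0.21 for GCLC (interval -0.27 to -0.14) and 0.0026 for GCLM (interval -0.08 to 0.09). The ratio itself was not tested with these offsets.

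GSS, which adds glycine in the last step of synthesis (ENSG00000100983; chromosome 20, 34928432 to 34956027, minus strand), had 112 CPM, 125 CPM and 122 CPM in ENZ and 112 CPM, 116 CPM and 116 CPM in Control. ENZ replicate 1 lay at the lowest Control level and the other ENZ libraries lay above all Control libraries. The log2 fold change was 0.10 ± 0.05 (interval 0.0007 to 0.19; adjusted p = 0.102), and without ENZ replicate 1 it was 0.15 and called (adjusted p = 0.00206). With GC and length offsets it was 0.03 (adjusted p = 0.494).

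GSR, the reductase that regenerates glutathione (ENSG00000104687), was the most abundant of the 9 genes per length. It had 429 CPM, 427 CPM and 441 CPM in ENZ and 429 CPM, 423 CPM and 422 CPM in Control. The groups overlapped and the log2 fold change was 0.06 ± 0.03 (interval -0.0075 to 0.13; adjusted p = 0.148), a change of 4.4% with an interval from -0.5% to 9.5%. The gene was called with GC and length offsets, with 0.08 on the log2 scale (adjusted p = 0.0172), and without ENZ replicate 1, also at 0.08 (adjusted p = 0.0475).

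CBS, cystathionine beta-synthase, opens the transsulfuration route that turns homocysteine into cysteine (ENSG00000160200; chromosome 21, 43053191 to 43076943, minus strand). It had 227 CPM, 239.7 CPM and 235 CPM in ENZ and 202 CPM, 208 CPM and 202 CPM in Control. Every ENZ library lay above every Control library. CBS rose, with a log2 fold change of 0.23 ± 0.04 (interval 0.15 to 0.31; adjusted p = 3.81e-05), a 17.4% higher level. The call held in all 17 alternatives run, with log2 fold changes from 0.15, with GC and length offsets (adjusted p = 1.09e-04), to 0.26. A near-identical copy of this gene, CBSL, is not among the symbols used here, and whether the CBS count holds its reads was not tested.

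CTH, the enzyme after CBS on the route to cysteine, was far lower per length, at 4.39 to 5.37 FPKM, against 29.8 to 35.3 FPKM for CBS. It had 11.9 CPM, 13.0 CPM and 12.0 CPM in ENZ and 11.5 CPM, 10.9 CPM and 10.6 CPM in Control. Every ENZ library lay above every Control library, yet the gene was not called (log2 fold change 0.19 ± 0.08; adjusted p = 0.0684). It was called with GC and length offsets (0.31; adjusted p = 0.00253) and without ENZ replicate 1 (0.22; adjusted p = 0.0483).

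GGT1, the surface enzyme that begins the breakdown of extracellular glutathione (ENSG00000100031; chromosome 22, 24594811 to 24629005, plus strand), was low, with 66, 39 and 49 counts in ENZ and 40, 47 and 35 counts in Control. ENZ replicate 1 was the highest library and the others were mixed. The log2 fold change was 0.30 ± 0.21 (interval -0.14 to 0.73; adjusted p = 0.28), an interval from -9.2% to 65.9% in level. Without ENZ replicate 1 it was 0.12 (adjusted p = 0.727). GGT1 has close relatives and pseudogenes, and when GGT1 was summed with 6 of them, its closest relatives by name in the table, the log2 fold change was -0.02 (adjusted p = 0.949). An unnamed protein-coding gene on the same strand shares 2472 bases of exon with GGT1 and had 2 to 7 counts.

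GLS2, the liver-type glutaminase that makes glutamate from glutamine (ENSG00000135423; chromosome 12, 56470944 to 56488414, minus strand), had 60, 74 and 63 counts in ENZ and 50, 39 and 61 counts in Control. In CPM the groups overlapped, with 1.998, 2.77 and 2.14 in ENZ and 1.77, 1.44 and 2.29 in Control. The log2 fold change was 0.36 ± 0.20 (interval -0.05 to 0.77; adjusted p = 0.158). It was 0.21 without ENZ replicate 2, 0.22 without Control replicate 2 and 0.55 without Control replicate 3, not called in any of these (adjusted p 0.0619 to 0.491). Its exons overlap those of SPRYD4 on the opposite strand over 3194 bases, SPRYD4 had 718 to 860 counts, and the library kit does not mark strand, so the count of GLS2 is uncertain.

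**Figure D2:**
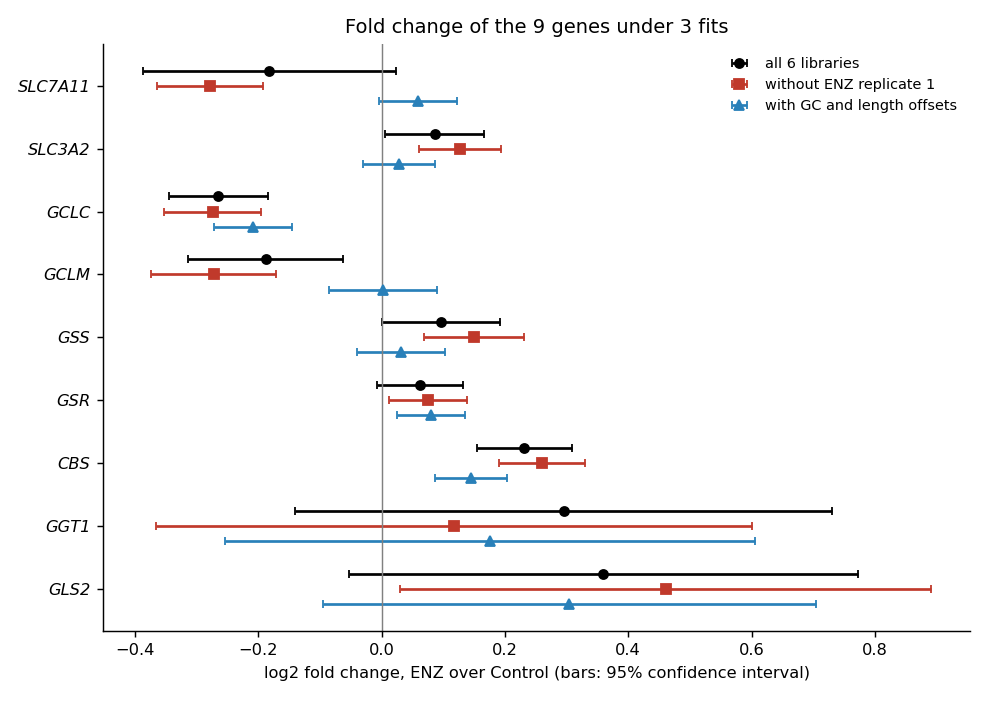
Log2 fold change of ENZ over Control (horizontal axis) for the 9 genes with 95% confidence intervals, from all 6 libraries, without ENZ replicate 1 and with GC and length offsets. GCLC and CBS keep their side of 0 in all 3 fits, while GCLM moves from -0.19 to 0.0026 and SLC7A11 from -0.18 to 0.06 with the offsets.

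Per length, the order of the 9 genes over all 6 libraries was GSR (117 to 122.6 FPKM), SLC3A2 (54.3 to 59.9 FPKM), CBS (29.8 to 35.3 FPKM), SLC7A11 (16.6 to 22.7 FPKM), GSS (18.1 to 20.3 FPKM), GCLC (13.6 to 17.3 FPKM), GCLM (9.11 to 12.0 FPKM), GLS2 (0.347 to 0.668 FPKM) and GGT1 (0.2997 to 0.502 FPKM). Neighbours overlapped in range for SLC7A11 and GSS and for GLS2 and GGT1, and did not for the others. Among all tested genes the percentile of mean FPKM was 98.6 for GSR and 75.2 for GCLM, while it was 18.7 for GLS2 and 14.7 for GGT1. The transporter, ligase, synthetase, reductase and CBS transcripts were thus well above the middle of all levels, and GLS2 and GGT1 well below it.

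**Figure D3:**
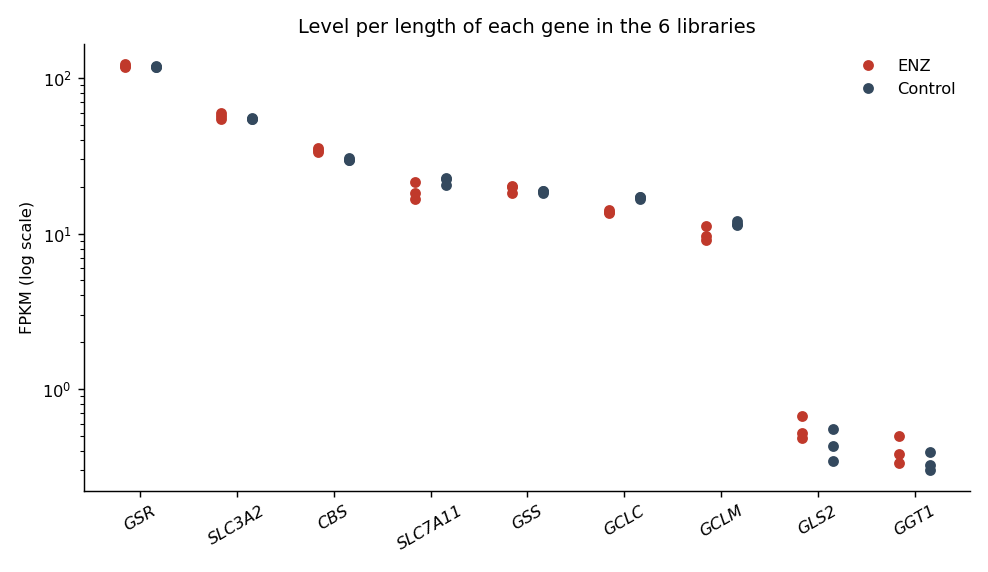
FPKM on a log scale (vertical axis) for the 9 genes, ordered by their mean, with each ENZ library and each Control library as a point. The 7 genes from GSR to GCLM lie between 9.11 and 122.6 FPKM, and GLS2 and GGT1 lie under 0.67 FPKM.

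The sign of the fold changes ran with the GC content of the transcripts, among the 9 genes and over all genes. SLC7A11, GCLM and GCLC, whose longest transcripts had 35.4%, 37.3% and 44.2% GC, were the 3 genes with a negative log2 fold change, and the 6 genes with 46.7% to 61.7% GC had positive ones. Among 3126 tested genes under 40% GC the median log2 fold change was -0.18, with 5.76% called higher and 40.1% called lower. Among 2524 genes at 60% GC or more it was 0.14, with 36.1% called higher and 6.42% called lower. The log2 fold changes of SLC7A11 and GCLM, -0.18 and -0.19, lay near the median of genes under 40% GC. The source of the trend with GC content was not tested.

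Libraries of 1 group also differed in this way. The median deviation of genes under 40% GC from their mean over the 6 libraries (log2 CPM, 2011 genes with a mean of at least 10 CPM) was 0.01, -0.11 and -0.18 in ENZ replicates 1 to 3 and 0.12, 0.05 and 0.12 in Control replicates 1 to 3. SLC7A11 deviated by 0.08, -0.14 and -0.28 in ENZ and by 0.15, 0.02 and 0.17 in Control. In both, ENZ replicate 1 lay nearest to Control and Control replicate 2 was the lowest Control library. GCLC deviated by -0.12, -0.16 and -0.17 in ENZ and by 0.17, 0.12 and 0.17 in Control, so ENZ replicate 1 was close to the other ENZ libraries. Of the 9 genes 7 were called without ENZ replicate 1, 4 higher and 3 lower, where 43.4% of all tested genes were called. With any other library left out, 2 or 3 of the 9 were called, where 5844 to 6738 of 18886 to 19138 tested genes were called. With GC and length offsets 3 were called, GCLC lower and CBS and GSR higher, where 42.7% of all tested genes were called.

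**Figure D4:**
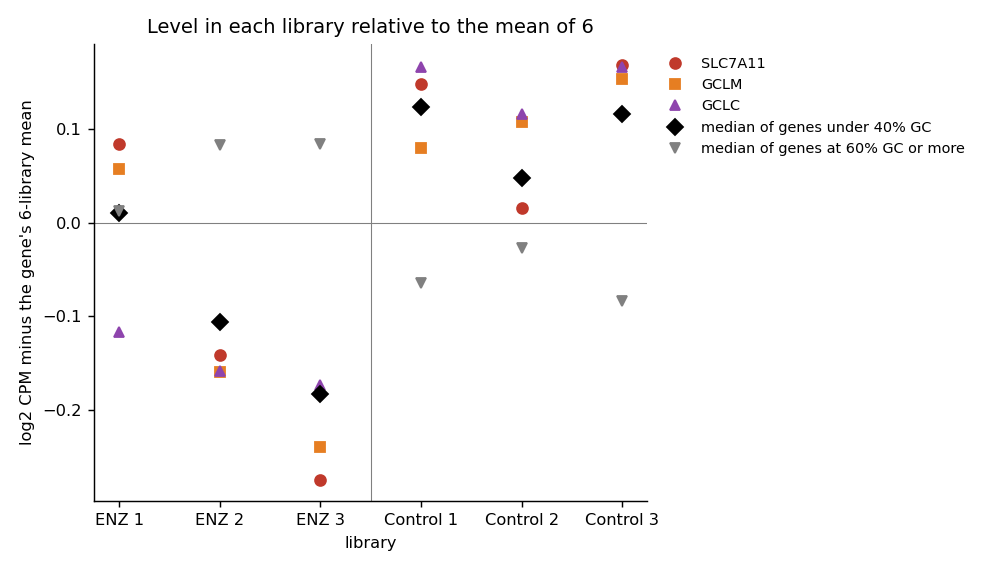
Log2 CPM of SLC7A11, GCLM and GCLC in each library (horizontal axis) minus the gene's mean over 6 libraries (vertical axis), with the median of genes under 40% GC and of genes at 60% GC or more. SLC7A11 and GCLM lie above 0 in ENZ replicate 1 and below it in ENZ replicates 2 and 3, while GCLC is below 0 in all 3 ENZ libraries.

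Among the genes whose level was most like that of SLC7A11 over the 6 libraries, of 10240 with a mean of at least 10 CPM, were YME1L1, TMF1, DDHD1 and RPGRIP1L, with Pearson correlations of log2 CPM from 0.996 to 0.999. These points share libraries and their depth, and with 6 libraries and 10240 genes close likeness is a description only. None of these 4 was called (adjusted p 0.0697 to 0.269), and their transcripts had 36.1% to 41.2% GC.

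The other genes of the pathway were taken from 7 lists, with 98 genes in the table and 89 tested. Of these 35 rose, 16 fell and 38 were not called, a share called of 57.3% against 39.8% of all tested genes, with a median log2 fold change of 0.08 against -0.0059 over all tested genes. Small changes are called more easily at high counts. The 2 shares were not matched for level and their difference was not tested.

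Among 15 tested transporters of precursors 3 rose and 4 fell (median log2 fold change -0.03). SLC38A2, a glutamine transporter induced by amino acid shortage, fell by 0.42 ± 0.04 on the log2 scale, to 739 CPM in ENZ, against 1013 CPM in Control. SLC1A5, another glutamine transporter, rose by 0.32 ± 0.04 to 376 CPM, against 308 CPM in Control. SLC1A3, a glutamate transporter, fell by 0.47 and SLC38A1 by 0.30. With GC and length offsets the log2 fold changes were smaller and still called for SLC38A2 (-0.23), SLC1A5 (0.20) and SLC38A1 (-0.18). Of 14 tested genes of the methionine cycle and transsulfuration 6 rose and 2 fell (median 0.11). The hydrolase of S-adenosylhomocysteine, AHCY, which yields the homocysteine that CBS uses, rose by 0.19 ± 0.04. The list also counts its relatives AHCYL1 and AHCYL2, which rose by 0.26 and 0.43, and whether they yield homocysteine was not tested. GNMT, a glycine methyltransferase, fell by 0.91 ± 0.13, to 3.46 CPM in ENZ, against 6.65 CPM in Control. The value for AHCY was 0.13 with the offsets, still called.

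Of 7 tested genes of glutathione breakdown 3 rose and 2 fell (median 0.06). CHAC1, which cleaves glutathione inside the cell, had 19.2 CPM, 20.2 CPM and 18.9 CPM in ENZ and 12.5 CPM, 11.4 CPM and 10.6 CPM in Control. The groups did not overlap, and the rise of 0.79 ± 0.08 on the log2 scale (adjusted p = 6.98e-08) was larger than that of any of the 9 genes. GGCT fell by 0.23 and lost its call with GC and length offsets (-0.08, adjusted p = 0.0972). GGT7 rose by 0.26, a call lost with the offsets (0.14; adjusted p = 0.0881), and the aminopeptidase LAP3 rose by 0.13. The LAP3 call was lost when scaled to library totals alone (adjusted p = 0.0751), in limma on FPKM values (0.0915 to 0.121), without ENZ replicate 3 (0.088), and without Control replicate 1 (0.0596) or 2 (0.0602). The GGT7 call was also lost in limma on FPKM values (0.0621 to 0.149) and without ENZ replicate 2 (0.0631).

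Of 11 tested genes of glutamate supply 3 rose and 5 fell (median -0.15). PSAT1, an aminotransferase of serine synthesis that uses glutamate, rose by 0.33 ± 0.03, and the aminotransferase GPT2 rose by 0.22. GLUL, which makes glutamine from glutamate, fell by 0.29 ± 0.05. Of 14 tested genes of NADPH supply and the thioredoxin system 6 rose and 1 fell (median 0.09). TKT, a transketolase of the pentose phosphate pathway, rose by 0.55 ± 0.04 to 536 CPM in ENZ, against 374 CPM in Control. The NAD kinase NADK rose by 0.20 and PGLS, the lactonase of the same pathway as TKT, by 0.25. TXNRD1, a thioredoxin reductase and NRF2 target, fell by 0.17 ± 0.03 to 345 CPM, against 397 CPM in Control. With the offsets GPT2 (0.14), NADK (0.11) and PGLS (0.16) had smaller log2 fold changes and were still called.

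Of 10 tested genes of glutathione transport 5 rose and 1 fell (median 0.10). ABCC4, an efflux pump, fell by 0.92 ± 0.06 to 18.8 CPM in ENZ, against 36.6 CPM in Control, and ABCC1, which exports glutathione and its conjugates, rose by 0.33 ± 0.04. SLC25A39, the importer of glutathione into mitochondria, rose by 0.18 and AFG3L2, a protease subunit of the inner mitochondrial membrane, by 0.16. Of 18 tested regulators 9 rose and 1 fell (median 0.12). NFE2L2 was not called, at 58.0 ± 5.46 CPM in ENZ and 55.2 ± 1.44 CPM in Control (log2 fold change 0.11, interval -0.01 to 0.22; adjusted p = 0.145), but it was with GC and length offsets (0.23; adjusted p = 3.66e-05) and without ENZ replicate 3 (0.16; adjusted p = 0.0232) and came to 0.04 (adjusted p = 0.587) once ENZ replicate 1 was dropped. KEAP1, which marks NRF2 for degradation, rose by 0.24 ± 0.05, and the NRF2 relative NFE2L1 by 0.38 ± 0.04. ATF4 rose by 0.15 ± 0.04 (adjusted p = 0.00204), a call lost in limma on FPKM values (adjusted p 0.0627 to 0.0995). TRIB3 rose by 0.35 and the heme-regulated kinase EIF2AK1 by 0.54 ± 0.03. The 1 regulator that fell was EIF2AK3, by 0.29 ± 0.07 (adjusted p = 0.00113), and EIF2AK4 was not called (0.0098, adjusted p = 0.879). With the offsets the log2 fold changes of SLC25A39 (0.087), KEAP1 (0.13) and ATF4 (0.0909) were smaller and that of AFG3L2 (0.26) was larger, all still called. The KEAP1 call was lost in limma on unfiltered FPKM values (adjusted p = 0.0557).

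**Figure D5:**
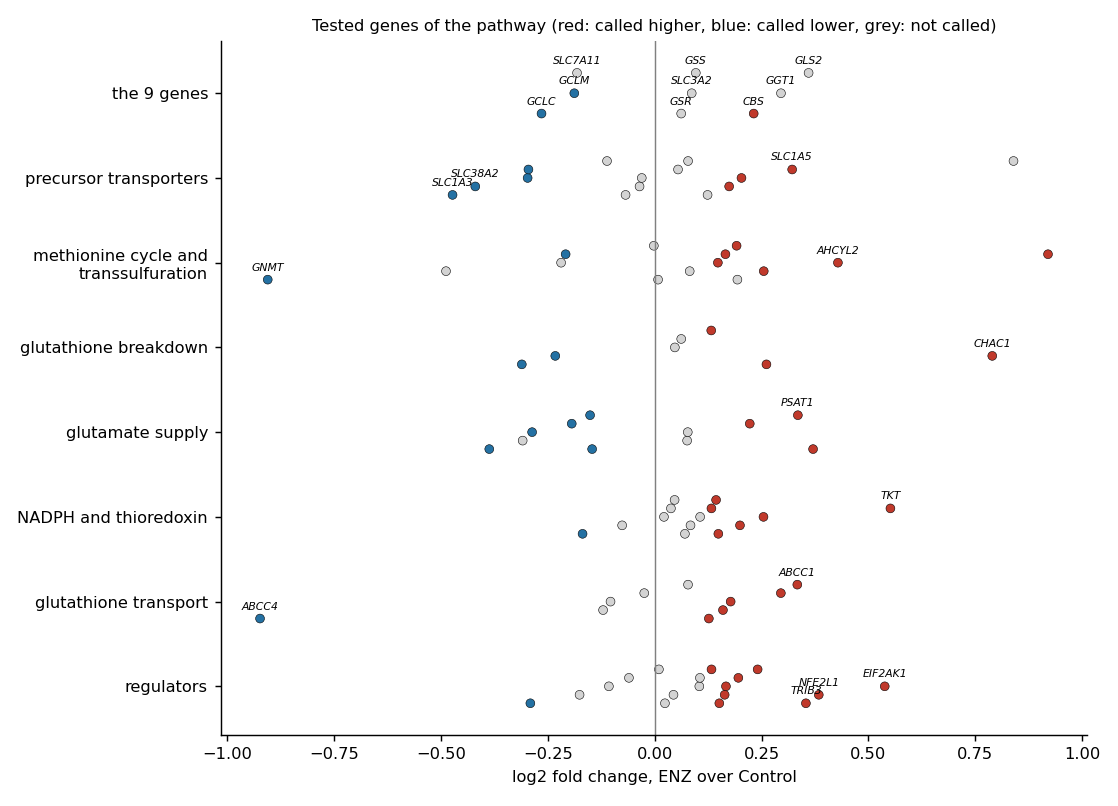
Log2 fold change of ENZ over Control (horizontal axis) for the 9 genes and the 89 tested genes of the other 7 lists, each point a gene, in red where called higher, in blue where called lower and in grey where not called. Each of the 7 lists holds calls in both directions, with ABCC4 at -0.92 the lowest point.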

How the data were processed

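RNA was sequenced from 6 libraries of cells labelled RKO, 3 labelled ENZ and 3 Control, and grouped by their titles. Per the labels' protocols, poly-T beads picked out mRNA, first strands were primed at random, and the NEBNext Ultra kit used does not mark strand. Per the series design, paired reads of 150 bp were sequenced. HISAT2 2.0.5, HTSeq 0.6.1, DESeq2 1.20.0 and GRCh38 are named, per the submitters' processing notes. No source used here gives the annotation release or the strand setting. Gene counts, not normalized, and FPKM values were deposited by the authors, and the FPKM equalled counts per length and library total to within 6.34e-06 percent for values of at least 10 counts.

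Counts were tested with edgeR 4.0.16 (R 4.3.3): TMM, default filter, robust dispersions, quasi-likelihood F test, Benjamini-Hochberg over 18581 genes. The SE is the log2 fold change over the square root of F. GC content and positions came from GENCODE release 44 (longest transcript), with natural splines of 4 degrees of freedom for the offsets. Alternatives were DESeq2 1.42.0, limma 3.58.1 (voom, and log2 of FPKM plus 1 or 0.1), other scalings and filters, the offsets, summed GGT1 relatives, and each library left out. Ratios were tested by exact permutation over 20 splits.

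The 9 genes and the lists were chosen with earlier results of these data known. From each list up to 4 called genes of smallest adjusted p were named, and CTH, NFE2L2, ATF4, TXNRD1 and CHAC1 in any case. EIF2AK3 and EIF2AK4 were named outside these rules. Some genes that these rules name are not reported here. The series design calls the replicates biological, no source used here names separate cultures, and a p-value then reflects only how far these 6 libraries vary, which may be technical. Pairs within a group differed by more than sampling noise (chi-square per degree of freedom 1.93 to 6.15). The limits from 3 counts cover counting error only.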

Additional observations from a re-analysis of the deposited data

How the results depend on the processing

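GCLC and CBS kept direction and call in all 17 alternatives, with log2 fold changes of -0.30 to -0.21 and 0.15 to 0.26. SLC7A11 became called with limma-voom (-0.19), without a filter on low counts (-0.18) and with the replicate number as a block (-0.19), and turned to 0.0593 with GC and length offsets. Leaving out each library gave -0.28 to -0.10 for SLC7A11, -0.27 to -0.13 for GCLM, 0.0456 to 0.13 for SLC3A2, 0.0654 to 0.15 for GSS and 0.044 to 0.0755 for GSR. GCLM lost its call in limma on log2(FPKM + 1) with and without a filter (-0.21 each) and on log2(FPKM + 0.1) (-0.23), and was 0.0026 with GC and length offsets. GSR became called with those offsets (0.0799), and GGT1 turned to -0.0186 when summed with its relatives. CBSL is not among the symbols used here, so its sum with CBS was not run. GLS2 and GGT1 averaged under 1 FPKM and have no value in the filtered FPKM fits. The log2 ratio differences kept their sign with each library left out, from -0.12 to -0.0018 for GCLC to GCLM and from -0.40 to -0.15 for SLC7A11 to SLC3A2. Genes called in all numbered 7393, 4761 in limma on unfiltered log2(FPKM + 1) values, and 5844 to 8258 with each library left out. The methionine cycle and transsulfuration list had 8 calls, and 5 in both filtered FPKM fits. The glutathione breakdown list had 5 calls, 2 in each of the 3 FPKM fits, 3 with GC and length offsets and 3 to 5 with each library left out. The regulators had 10 calls, and 5 in limma on unfiltered FPKM values. Among the 32 other genes that the naming rule picks, 523 of 544 values under alternatives kept direction and side of the threshold, 17 lost and 4 gained a call, and 0 turned direction. Replicate numbers did not pair the libraries: deviations of same-numbered libraries correlated at 0.22, 0.163 and -0.184, and ENZ replicates 1 and 3 correlated best with another number. The block called 7466 genes. The cause of these changes was not tested. Depth limits GGT1 and GLS2, whose 35 to 74 counts a library leave wide intervals.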
